A study of Mus musculus with 24 samples.

Results

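Acetylation of lysine 27 of histone H3 (H3K27ac) was profiled by ChIP-seq in forelimb buds of wild-type (WT) and Shh-/- mouse embryos, and the deposited peak lists were summarised gene by gene to ask which loci lost or gained acetylated sequence when Sonic hedgehog was absent. Of the 24 samples in the series, 6 belonged to this comparison. Each genotype had 2 ChIP replicates and 1 input library, and each ChIP used about 400000 cells from Swiss Webster embryos at E10.5 with 32 to 35 somites. By the study's methods the WT controls combined WT and heterozygous somite-matched littermates, the mutants carried a null allele of Shh in every cell, and whole forelimb buds were pooled from several embryos. The replicates of a genotype were merged before peaks were called, so that each genotype contributed 1 list and no spread between replicates could be computed. All differences below are therefore descriptions of 2 lists without a test.

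H3K27ac marks active promoters and enhancers, most of which lie far from the genes they regulate. In the limb bud Shh is secreted from posterior mesenchyme and acts through the GLI transcription factors, which activate target genes where the signal is received and repress them where it is not. Without Shh the distal and posterior skeleton fails to form and the anterior programme extends across the bud. Because whole buds were used, fewer cells of a type and less acetylation per cell cannot be told apart in these lists.

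The WT list held 49679 peaks that covered 23249950 bp, and the Shh-/- list held 43916 peaks that covered 19692300 bp, a ratio of covered sequence of 1.18. Every peak was credited to the protein-coding gene with the closest transcript start, measured from the peak's midpoint. Of 21938 coding genes, 12532 were credited with a peak in either list, 10178 of them in both lists, 1554 in the WT list alone and 800 in the Shh-/- list alone. A gene was called lower in Shh-/- if its covered length in WT was at least 2 times that in Shh-/- and at least 2000 bp greater, and higher in Shh-/- by the mirror rule. By this rule 196 genes were lower (1.56% of the 12532) and 23 were higher (0.184%). Genes just inside the limit included Bbx with 3700 bp in WT and 1700 bp in Shh-/-, and genes just outside included Cradd with 2800 and 850 bp.

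The lists differed in total length, and this moved the balance between the directions. The median gene had a log2 ratio of WT to Shh-/- covered bp of 0.20, with 500 bp added to both values here and in every log2 ratio of covered bp below. When the Shh-/- lengths were multiplied by the ratio of the totals, this median was 0.05, 125 genes were lower and 51 were higher, and the share of calls that were lower went from 89.5% to 71.0%. The 125 genes were all among the 196, and all 23 higher genes stayed higher. Both outcomes were fixed in advance, because this scaling only lengthens the Shh-/- side. Depth per library is not given in the lists, so its part in the difference in total length was not tested.

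**Figure D1:**
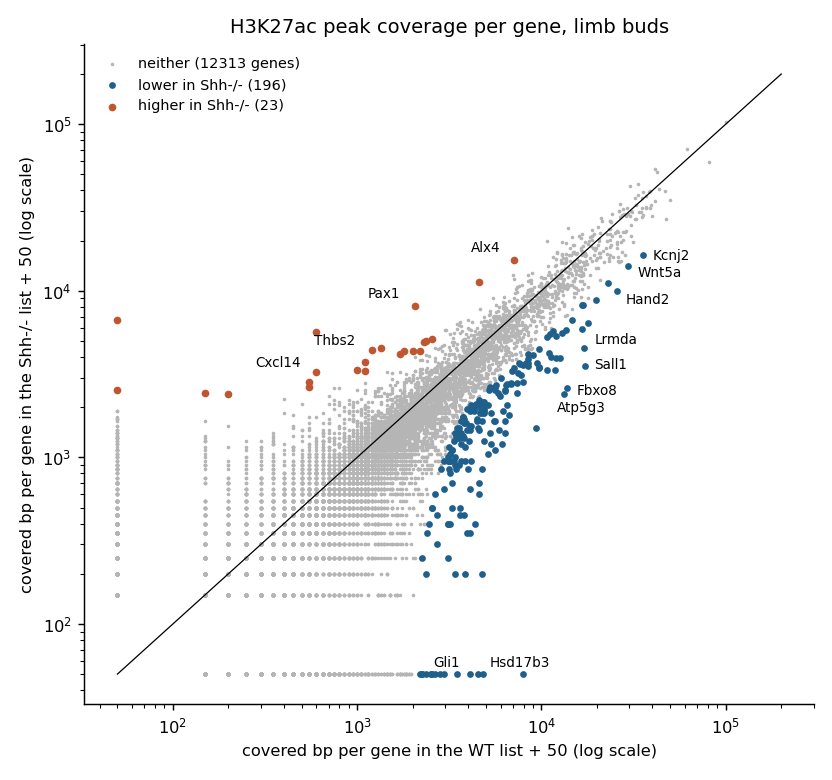
Covered H3K27ac length of each of 12532 genes in the WT list (x axis) and the Shh-/- list (y axis), in bp with 50 added, on log scales. Blue points are the 196 genes lower in Shh-/-, orange points the 23 genes higher, grey points the rest, and the line marks equal length. Kcnj2 and Wnt5a lie far out along both axes, whereas Gli1 and Hsd17b3 sit at the bottom edge because the Shh-/- list held no peak for them.

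To show sequence behind large losses and gains, windows were taken from the GRCm38.p6 assembly (mm10), plus strand, around the bin of highest ChIP-to-input statistic in the best-ranked unshared peak outside exons of 5 genes lower and 2 genes higher in Shh-/-, with that 50-base bin in capitals. The genes were chosen after their values were seen. The Wnt5a window (chr14:28450101-28450250) lay in an intron of the neighbouring gene Erc2, the Lrmda window (chr14:22591001-22591150) in an intron of Lrmda itself, and the windows of Kcnj2 (chr11:111568751-111568900), Fbxo8 (chr8:56708751-56708900), Atp5g3 (chr2:73977401-73977550), Alx4 (chr2:93624951-93625100) and Pax1 (chr2:147514201-147514350) between coding genes.
Wnt5a, WT only: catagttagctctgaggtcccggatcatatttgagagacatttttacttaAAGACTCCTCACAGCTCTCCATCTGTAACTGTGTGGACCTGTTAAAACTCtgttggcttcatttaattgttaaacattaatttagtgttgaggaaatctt
Kcnj2, WT only: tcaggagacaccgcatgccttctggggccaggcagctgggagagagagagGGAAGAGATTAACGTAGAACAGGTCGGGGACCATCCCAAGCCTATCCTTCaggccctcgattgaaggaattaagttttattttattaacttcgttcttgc
Lrmda, WT only: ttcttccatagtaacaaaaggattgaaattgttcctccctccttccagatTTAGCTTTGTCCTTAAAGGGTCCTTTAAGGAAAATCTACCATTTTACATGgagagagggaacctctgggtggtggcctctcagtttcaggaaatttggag
Fbxo8, WT only: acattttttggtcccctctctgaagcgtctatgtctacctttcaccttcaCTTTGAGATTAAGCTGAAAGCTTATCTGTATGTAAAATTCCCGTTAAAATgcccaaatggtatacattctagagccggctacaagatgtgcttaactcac
Atp5g3, WT only: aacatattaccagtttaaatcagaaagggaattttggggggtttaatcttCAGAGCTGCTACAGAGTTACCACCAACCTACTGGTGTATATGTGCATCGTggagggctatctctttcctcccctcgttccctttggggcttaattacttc
Alx4, Shh-/- only: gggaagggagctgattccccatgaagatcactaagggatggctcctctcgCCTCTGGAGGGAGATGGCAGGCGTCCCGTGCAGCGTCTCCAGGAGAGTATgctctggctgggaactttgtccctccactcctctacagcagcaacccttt
Pax1, Shh-/- only: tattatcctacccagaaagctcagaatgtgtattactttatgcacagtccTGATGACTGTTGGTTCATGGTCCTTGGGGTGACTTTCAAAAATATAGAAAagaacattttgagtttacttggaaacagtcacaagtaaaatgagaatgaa

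The GLI consensus GACCACCCA was searched as an exact match on both strands of every peak. It was present in 0.401% of all WT peaks (199 of 49679, 95% Wilson interval 0.349 to 0.46%) and in 0.266% of Shh-/- peaks (117 of 43916, 0.222 to 0.319%). Among the WT peaks of the lower genes without an overlapping Shh-/- peak it was present in 8 of 2014 (0.397%, 0.201 to 0.782%), against 0.233% (0.179 to 0.302%) of all 24073 such WT peaks, so that the intervals overlapped. None of the 207 Shh-/- peaks at higher genes held it, with an upper Wilson limit of 1.82%. These intervals cover counting error only, and an exact match is a description rather than a bound site. Among the genes named below outside the well-known Hedgehog targets, Rnd3 and Hsd17b3 had the motif in an unshared WT peak clear of exons, in a peak between coding genes (chr2:50815100-50815649) and in a peak within an intron of Slc35d2 (chr13:64107300-64107549). Their windows of 109 bases, with the motif in capitals and read on the minus strand for Rnd3 and the plus strand for Hsd17b3, were as follows.
Rnd3, chr2:50815336-50815444: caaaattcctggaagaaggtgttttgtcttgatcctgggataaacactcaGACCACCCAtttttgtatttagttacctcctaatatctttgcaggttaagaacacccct
Hsd17b3, chr13:64107448-64107556: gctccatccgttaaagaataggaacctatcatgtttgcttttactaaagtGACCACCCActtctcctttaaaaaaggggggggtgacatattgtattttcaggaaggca

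Of 12 well-known Hedgehog-responsive genes, 6 were lower in Shh-/- (Hand2, Sall1, Ptch1, Grem1, Gli1 and Hoxd12) and none was higher, and counted base by base Hoxd11 was lower as well. Grem1, which encodes a BMP antagonist, had 9250 bp in WT and 1450 bp in Shh-/-, a 6.38-fold difference. Bmp2 went the other way, with 8350 and 12350 bp, within the limits of the call. The remaining 190 lower genes lay outside this list and are described next.

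The largest differences among the lower genes outside the well-known list fell on large intergenic intervals and introns. Kcnj2 (chr11:111066164-111076821), which encodes an inward-rectifier potassium channel, had 79 peaks and 35700 bp in WT against 54 peaks and 16350 bp in Shh-/-. All 51 of its unshared WT peaks lay downstream of the gene, between 217 and 838 kb from its 5 prime end and on the side of Sox9, the regulator of cartilage formation. Sox9 itself was credited with 27150 bp in WT and 17000 bp in Shh-/-, a 1.6-fold difference that did not reach the call.

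Wnt5a (chr14:28504750-28527448), a Wnt ligand needed for limb outgrowth, had 44 peaks and 29500 bp in WT and 29 peaks and 14050 bp in Shh-/-. Its unshared peaks numbered 31 in WT and 4 in Shh-/-, and 27 of the 31 lay upstream, out to 302 kb. Its shared regions were also stronger in WT, with a median difference of 0.41 in the largest log2 ratio of ChIP to input. Peaks just downstream of its start were found in both lists, as the map of peak positions shows.

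Nr2f2 (chr7:70351944-70366735), an orphan nuclear receptor, had 22850 and 11050 bp. Its neighbour Mctp2 had 16450 and 8150 bp, and the predicted gene Gm10295 between them had 3550 and 450 bp, so that 3 adjacent genes were lower together. Kcnj2, Wnt5a, Nr2f2 and Mctp2 exceeded the 2-fold limit by little, with folds of 2.18, 2.1, 2.07 and 2.02, and they were no longer called when the Shh-/- lengths were scaled to the WT total. Of the 15 called genes of largest loss outside the well-known list, 8 stayed lower with scaled lengths. Hoxd10 (2.25-fold), Jazf1 (2.2-fold) and Rnd3 (2.05-fold) also lost the call. The 8 included Hist1h2af, whose call came from the cutting of a broad peak, as described below.

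Larger folds were found at another 4 genes. Atp5g3 (chr2:73908447-73911326), which encodes a subunit of mitochondrial ATP synthase, had 13200 bp in WT and 2350 bp in Shh-/- (5.62-fold), and 16 of its 17 unshared WT peaks lay upstream, toward Lnpk and the Hoxd cluster. Fbxo8 (chr8:56551090-56593939), an F-box protein gene, had 13750 and 2550 bp (5.39-fold), with all 20 unshared WT peaks on the side of Hand2 and no unshared Shh-/- peak. Lrmda (chr14:22019712-23056085), a leucine-rich repeat gene, had 17000 and 4500 bp (3.78-fold), with 36 unshared WT peaks and 7 unshared Shh-/- peaks. Vps13b (chr15:35371160-35931229), a gene of Golgi lipid transport, had 11850 and 3300 bp (3.59-fold).

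The other large differences were 2.05-fold to 3.08-fold. Gse1 had 12000 bp in WT and 3900 bp in Shh-/-, with 22 unshared WT peaks and 2 unshared Shh-/- peaks. Msi2, which encodes an RNA-binding protein, had 16550 and 5850 bp, and Rasgef1b, a guanine nucleotide exchange factor gene, had 17750 and 6350 bp. Jazf1, a zinc finger gene, had 14650 and 6650 bp, and Rnd3, a small GTPase gene, had 16800 and 8200 bp. The length credited near starts differed between genes, with a peak counted whole where its midpoint lay within 1 kb of a start. Such peaks covered 800 bp in both lists at Vps13b and 1150 and 1050 bp at Atp5g3. They covered 2800 and 1000 bp at Gse1 and 2050 and 750 bp at Rasgef1b. A shift of a broad peak's centre can move its whole length in or out of this count, which was not checked at these genes.

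**Figure D2:**
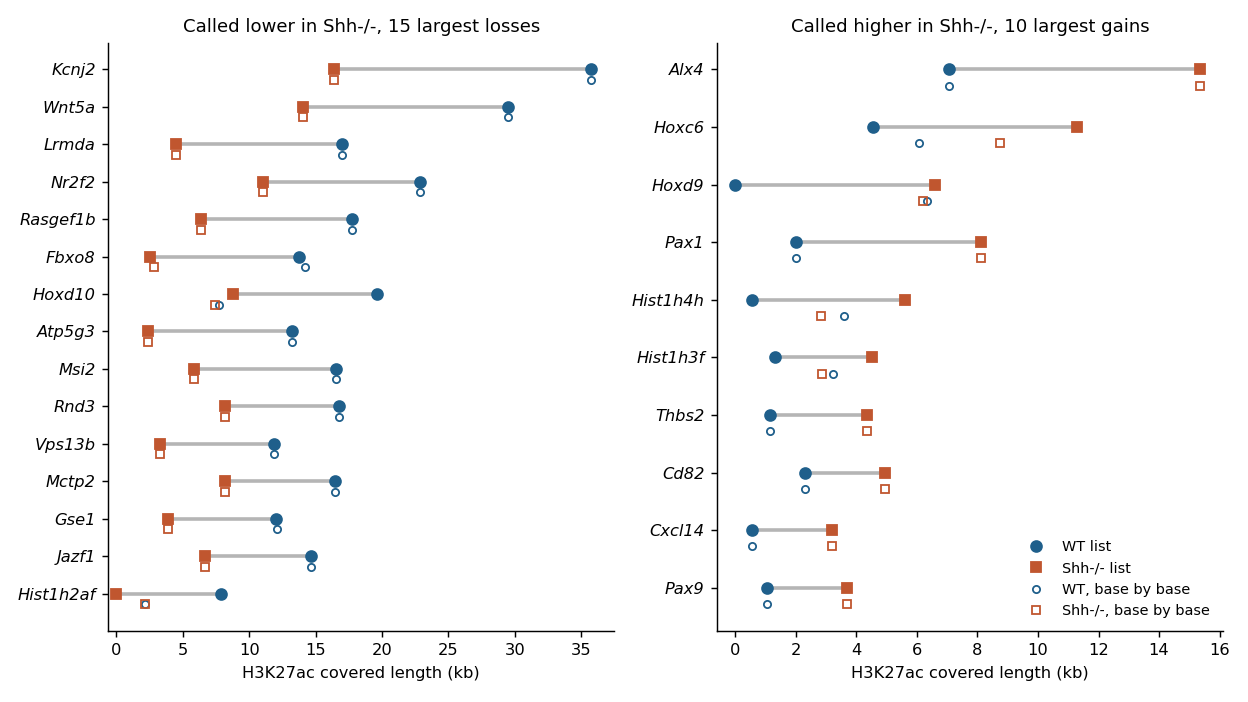
Covered H3K27ac length in kb in the WT list (blue circles) and the Shh-/- list (orange squares) for the 15 genes of largest loss among those called lower outside the well-known list and the 10 genes of largest gain among those called higher. Open symbols give the same lengths when each base, rather than each whole peak, was credited to its nearest start, and they meet at Hoxd10, Hist1h2af and Hoxd9, whose WT and Shh-/- lengths then differed by no more than 250 bp.

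Hoxd10 and Hist1h2af entered the 15 because broad peaks were cut differently in the lists. A WT peak of 19650 bp (chr2:74683400-74703049) spanned Hoxd11, Hoxd10 and Hoxd9 and was credited whole to Hoxd10, whereas the Shh-/- list divided the interval into 8 peaks of 18200 bp in all that were credited to 4 Hoxd genes. Counted base by base, Hoxd10 had 7702 and 7452 bp and Hoxd9 had 6346 and 6196 bp. Hoxd11, which the same WT peak spanned, had 7224 and 3374 bp base by base, which met the rule for lower, against 3500 and 2850 bp by whole peaks, which did not. A WT peak of 7900 bp over Hist1h4h, Hist1h2af and Hist1h3g likewise faced 3 Shh-/- peaks of 6950 bp, and base by base Hist1h2af had 2186 bp in both lists. Of the 15 named genes, the other 13 stayed lower base by base.

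The losses fell on adjacent genes in several places. Of the 196 lower genes, 25 (12.8%) stood next to another lower gene along the chromosome, in 14 neighbouring pairs. Of the 23 higher genes, 2 (8.7%) stood next to another higher gene. The share among genes drawn without regard to the call was not computed, and crediting by nearest start can divide a changed interval between flanking genes. Ptch1, Ercc6l2 and Hsd17b3 formed one such run, with 12600, 3950 and 4750 bp in WT and 3900, 800 and 0 bp in Shh-/-. Fbxo8 adjoined Hand2, which had 25550 and 9850 bp, and Atp5g3 adjoined Lnpk, which had 5800 and 1400 bp and lies near the Hoxd cluster. Fmn1, whose introns hold limb enhancers of Grem1, had 11050 and 5450 bp next to Grem1. Among the 190 lower genes outside the well-known list, 5 (2.63%) had their start within 500 kb of a well-known gene, against 0.551% of all 12532. The 5 included Hoxd10, whose call came from the cutting of a broad peak. Hsd17b3, Fbxo8 and Atp5g3 had their starts more than 500 kb from any well-known gene.

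Some genes were absent from 1 list altogether. At least 3 WT peaks and no Shh-/- peak were found at 126 genes (1.01%), and the mirror pattern at 32 genes (0.255%). The WT list is longer, and with equal numbers of best-ranked peaks from both lists the counts were 90 and 47. Hsd17b3, a hydroxysteroid dehydrogenase gene next to Ercc6l2, led the first group with 13 peaks and 4750 bp, and 12 of its peaks lay downstream, out to 136 kb. The predicted gene Gm12830 had 9 peaks and 3450 bp, and Adamts17, a secreted metalloprotease gene, had 10 peaks and 2900 bp. Itgb6, an integrin subunit gene, had 5 peaks and 2450 bp, and Slc15a1, a peptide transporter gene, had 10 peaks and 2200 bp that all lay between 40.5 and 62.1 kb upstream. Tvp23a had 1900 bp and Kank1 1850 bp. Ttc3 was an exception, because 1 of its 3 WT peaks overlapped a Shh-/- peak that was credited to a neighbour. In the mirror group the leading genes were Gimd1 with 8 peaks and 1850 bp, on the side of the Wnt inhibitor gene Dkk2, and Pus10, Tmem72, Pdlim2 and Vgll3 with 1650, 1250, 1200 and 1200 bp. The 3 Shh-/- peaks of Pus10 all overlapped WT peaks credited elsewhere.

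Among the genes called higher in Shh-/-, the largest gain was at Alx4 (chr2:93642384-93681339), a homeobox gene of anterior mesenchyme. It had 16 peaks and 7050 bp in WT and 22 peaks and 15350 bp in Shh-/-, a 2.18-fold gain. Of its 15 unshared Shh-/- peaks, 14 lay within 30 kb upstream of the gene. On that side, beyond the predicted gene Gm10803, the tetraspanin gene Cd82 was also higher, with 2300 and 4950 bp.

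Pax1 (chr2:147361925-147393295), a paired-box gene of the shoulder girdle and sclerotome, had 6 peaks and 2000 bp in WT and 23 peaks and 8100 bp in Shh-/-, a 4.05-fold gain. Its 19 unshared Shh-/- peaks lay downstream, between 0.474 and 329 kb from its 5 prime end. Pax9 (chr12:56691767-56712822), its closest relative, had 1050 and 3700 bp. At these 3 genes the shared regions were stronger in Shh-/-, with median log2 differences of WT minus Shh-/- of -0.44 at Alx4, -1.11 at Pax1 and -0.38 at Pax9.

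Cxcl14, a chemokine gene, had 4 peaks and 12 peaks, with 550 bp in WT and 3200 bp in Shh-/- (5.82-fold). Thbs2, a thrombospondin gene, had 1150 and 4350 bp and stood next to Smoc2, which had 950 and 3300 bp. Hoxc6, a gene of the anterior body, had 4550 and 11300 bp, and 6054 and 8754 bp base by base, which no longer reached the call. Hoxd9, Hist1h4h and Hist1h3f were higher only through whole-peak crediting, and the direction turned base by base. The other 6 of the 10 named genes stayed higher base by base. Scaling could only raise the Shh-/- lengths, so it could not remove any of the 10 calls.

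**Figure D3:**
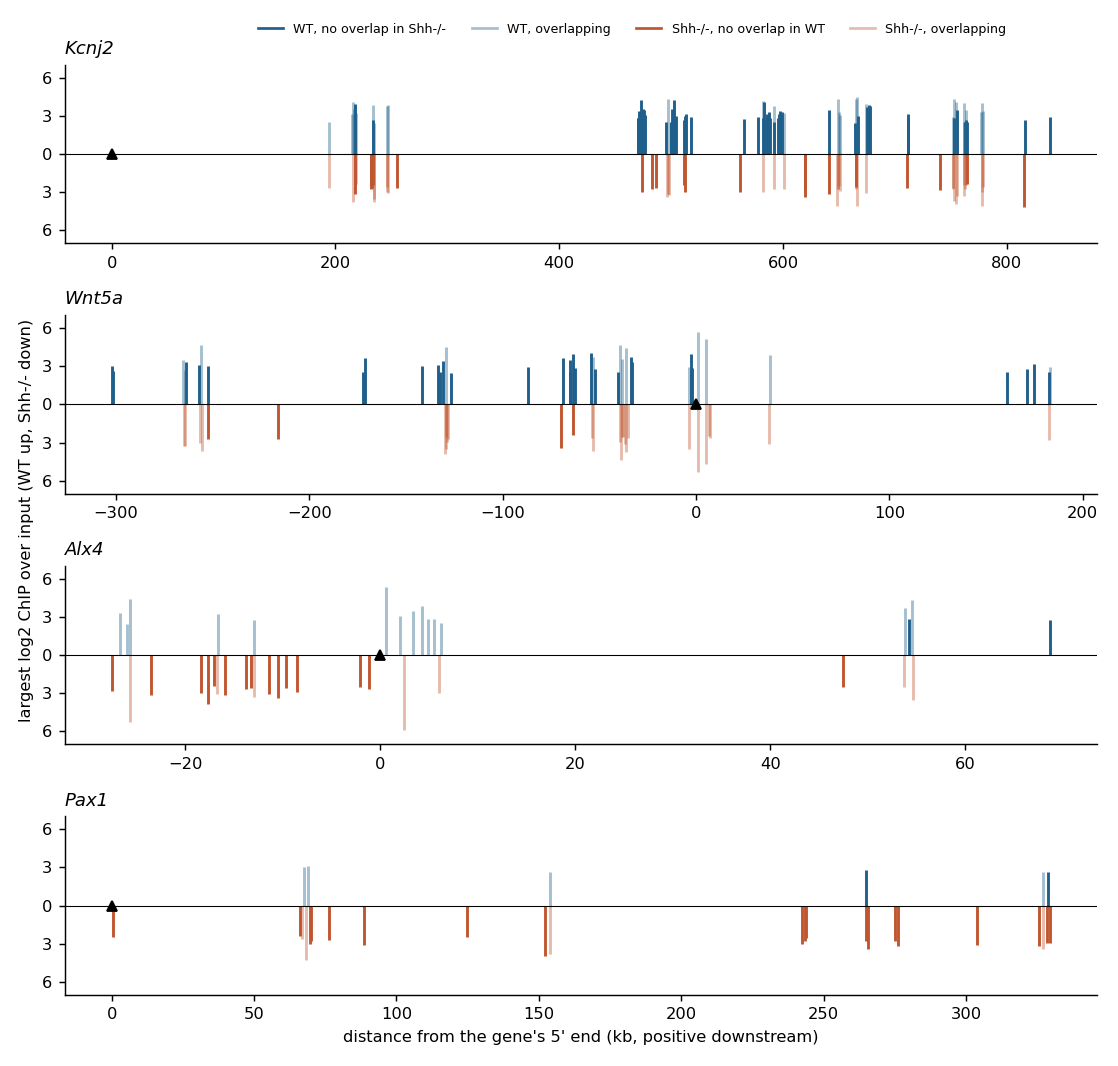
Positions of the H3K27ac peaks credited to Kcnj2, Wnt5a, Alx4 and Pax1, as distance in kb from the gene's 5 prime end (triangle, positive downstream). Bar height is the highest log2 enrichment over input that the authors gave for the peak, WT upward in blue and Shh-/- downward in orange, and full colour marks peaks with no overlap in the other list. Full-colour bars point mostly upward at Kcnj2 (51 WT, 20 Shh-/-) and Wnt5a (31 and 4) and mostly downward at Alx4 (2 and 15) and Pax1 (2 and 19).

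Lists of genes with known roles in the limb bud were then compared with all genes, whose median log2 ratio was 0.20 and of which 29.2% had more covered bp in Shh-/-. Among 14 anterior limb regulators, 3 were higher (Alx4, Pax1 and Pax9) and none was lower, the median was -0.51, and 12 (85.7%) had more covered bp in Shh-/-. With the Shh-/- lengths scaled the median was -0.72 and 4 of the 14 were higher. Irx3, an Iroquois homeobox gene, had 12850 and 19450 bp, and Msx2, a BMP-responsive homeobox gene, had 13600 and 19350 bp, both below the limit of the call. Gli3, the main GLI repressor, had 30650 and 29850 bp.

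Among 15 posterior and distal regulators with peaks the median was 0.38 and 12 (80.0%) had more covered bp in WT. That share was 66.6% over all genes and 78.3% for the housekeeping genes, so it is not particular to the posterior list. Tbx2 had 7750 and 4600 bp, Tbx3 9250 and 5650 bp, Sall3 8850 and 4500 bp, and Ets2 11000 and 6400 bp, none of which reached the call. The only calls in the list were Hoxd10 and Hoxd9 in opposite directions, and neither remained base by base. The proximal and retinoic acid genes, which include the Meis and retinoic acid receptor genes, had a median of -0.03 with no call among 13 genes. Meis1 had 27250 bp in WT and 28600 bp in Shh-/-, and Meis2 had 14950 and 17150 bp.

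The signalling pathways held few calls. Of 24 BMP and TGF-beta genes with peaks, Rgmb, a BMP co-receptor gene, was lower with 4550 and 2000 bp, and Gdf6, a BMP-family ligand gene of joints, was higher with 1950 and 4300 bp. The median was -0.05. Of 23 Wnt genes, Wnt5a was lower and none was higher, while with the Shh-/- lengths scaled none was lower and 1 was higher, the inhibitor gene Dkk2. Dkk2 had 3450 and 6250 bp as listed, and the agonist gene Rspo3 had 13400 and 7000 bp. None of 17 FGF genes was called, and the median was 0.32. Spred2 and Spry4, feedback inhibitors of FGF signalling, had 10400 and 5850 bp and 7700 and 4950 bp. None of 14 genes of Hedgehog reception and processing was called, and the median was 0.14. Of the 14, 9 had more covered bp in WT and 4 had more in Shh-/-. Gas1, a Hedgehog co-receptor gene, had 42150 and 51800 bp, and Cdon, another, had 12100 and 16900 bp. Scube1 and Gli2 went the other way, with 20550 and 16700 bp at Scube1 and 15100 and 11850 bp at Gli2.

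Of 23 cell cycle genes, Ccnd1 (5550 and 2600 bp) and Cdk6 (8150 and 3650 bp), which encode partners in passage through G1, were lower, and Mycn had 26000 and 15800 bp. With the Shh-/- lengths scaled, neither of them was called, and nor were Wnt5a, Nr2f2 or Rgmb among the genes of the other lists. The 19 genes of limb field and mesenchyme had a median of 0.23, with Nr2f2 as the only call and Fgf10 at 23100 and 15000 bp. The 15 chondrogenic genes had no call and a median of 0.24, and the 23 housekeeping genes had no call and a median of 0.18. Muscle precursor genes (10, median 0.13), endothelial genes (15, median -0.11) and ectodermal genes (11, median 0.09) also had no call. The rule could not call a gene with less than 2000 bp in both lists, such as Krt8 (950 and 0 bp) or Dlx5 (0 and 600 bp). The lack of calls therefore does not show that such genes were unchanged. Of 6 neural crest genes Ednrb was lower, with 2650 and 250 bp.

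**Figure D4:**
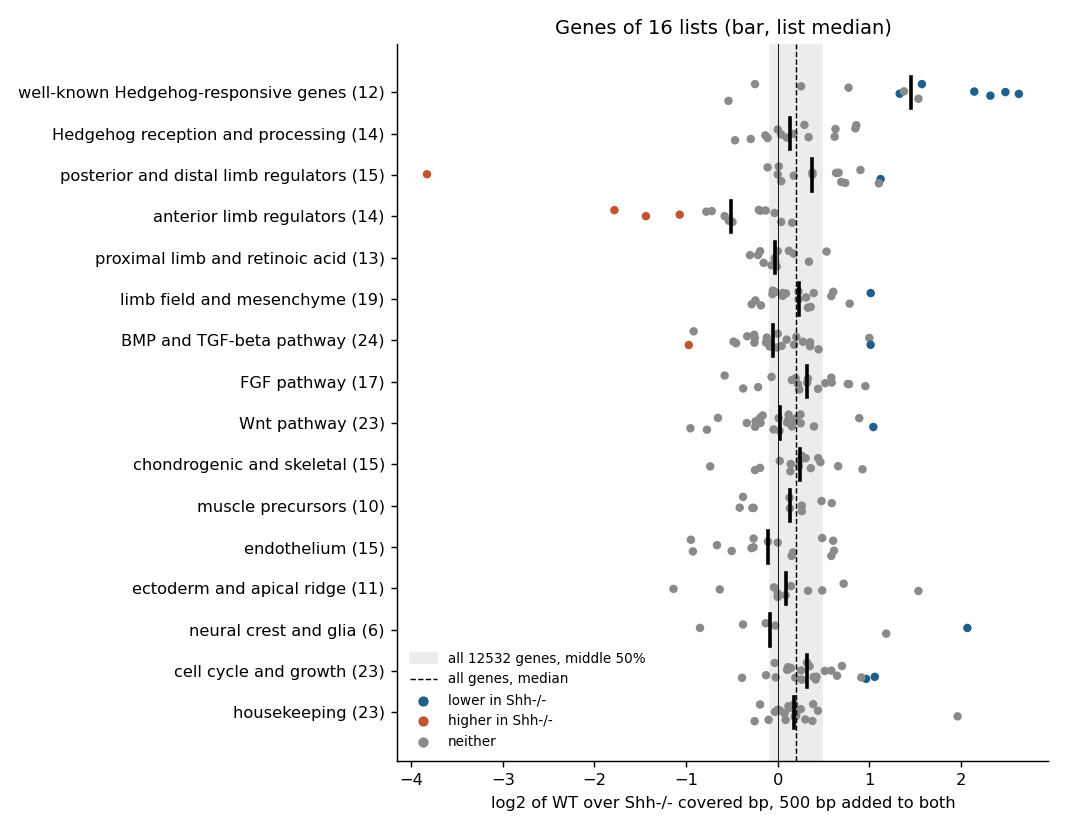
log2 ratio of WT over Shh-/- covered bp (500 bp added to both) for the genes of 16 lists, with the number of genes with a peak in parentheses. Each point is a gene, black bars are list medians, the dashed line is the median of all 12532 genes (0.20) and the grey band their middle 50%. The anterior limb regulators lie mostly to the left of the band (median -0.51) and the well-known Hedgehog-responsive genes mostly to the right (median 1.46).

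The labelled tissue was checked against defining markers. All 5 markers of limb mesenchyme (Prrx1, Tbx5, Fgf10, Meis2 and Lmx1b) had peaks in both lists, with 121650 bp in WT and 109050 bp in Shh-/-. The summed lengths of the markers of muscle precursors were 2500 and 2800 bp, of endothelium 13450 and 15100 bp, of ectoderm 3450 and 3250 bp, and of neural crest and glia 0 and 150 bp. The blood markers had 19350 and 17500 bp, all at Ptprc, and Gata1, Klf1, Spi1, Krt14, Krt5, Fgf8, Sox10 and Pax7 had no peak in either list. A part of these cell types in the differences above was not tested.

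Strength at regions found in both lists gave another readout of the same libraries. Over 9428 genes with such a region, the median difference, WT minus Shh-/-, in the largest log2 ratio of ChIP to input was 0.27, and 68.9% of genes were stronger in WT. For the lower genes the median was 0.53, and 165 of 184 (89.7%) were stronger in WT. For the higher genes it was -0.15, with 6 of 17 stronger in WT. Peak length and strength come from the same reads, so the readouts are not independent. The lower and higher genes were called on length, so their strength values are not separate support for the calls.

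H3K4me2, a mark of promoters and of active or primed enhancers, was profiled in limb buds of the same genotypes. By the same rule 7 genes were lower in Shh-/- in this mark (0.0459% of 15251) and 5 were higher (0.0328%). Among 186 genes lower in H3K27ac and credited with H3K4me2, 1 was lower in H3K4me2 (Hoxd12, with 2450 and 400 bp), and none of the 23 higher genes was called. The rule could not call a gene with less than 2000 bp of H3K4me2 in both lists, such as Mctp2 (1200 and 1350 bp). The few calls therefore do not show that the mark was unchanged at such genes. The median log2 ratio of H3K4me2 covered bp was 0.17 for the lower genes, 0.05 for the higher genes and 0.11 for all. Wnt5a, for example, had 8450 bp of H3K4me2 in WT and 7450 bp in Shh-/-, Kcnj2 had 2400 and 2150 bp, and Pax1 had 600 and 800 bp.

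**Figure D5:**
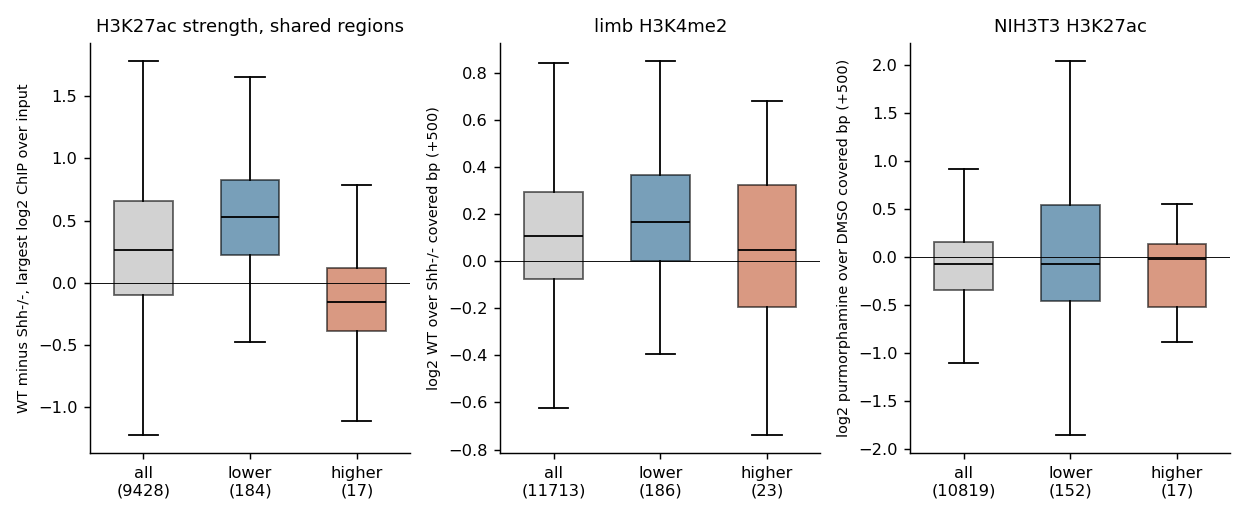
Values per gene for all genes, genes lower in Shh-/- and genes higher in Shh-/- in H3K27ac, with the number of genes in parentheses. The panels show H3K27ac strength at shared regions (log2 units, WT minus Shh-/-), the log2 ratio of WT over Shh-/- covered bp of limb H3K4me2, and the log2 ratio of purmorphamine over DMSO covered bp of NIH3T3 H3K27ac. Lines are medians, boxes the middle 50% and whiskers reach the farthest value within 1.5 box lengths, and the medians of lower genes are 0.53, 0.17 and -0.07.

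NIH3T3 fibroblasts treated with 400 nM of the Smoothened agonist purmorphamine or with DMSO offered a view of the same genes in other cells. By the same rule 398 genes were higher with purmorphamine (2.88% of 13843) and 696 were lower (5.03%). Of 152 limb lower genes with a fibroblast peak, 22 (14.5%, and 5.53% of the 398) were higher with purmorphamine and 10 (6.58%) were lower, while among genes with at least 2000 bp in WT limb buds the shares were 4.49% and 6.75%. The 22 included Ptch1, Ercc6l2 and Hsd17b3, which adjoin each other, and Gli1. Foxc1, a forkhead gene of mesenchyme, had 5550 and 1050 bp in WT and Shh-/- limb buds and 43350 and 9000 bp with purmorphamine and DMSO, and Skor1, a transcriptional corepressor gene, had 6600 and 1750 bp in limb buds and 14350 and 4400 bp in fibroblasts. Foxc1 and Skor1 were chosen after their values were seen. Kcnj2 had no fibroblast peak, and Wnt5a had 8900 bp with purmorphamine and 14350 bp with DMSO.

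H3K27me3, the mark of Polycomb repression, was profiled in Shh-/- limb buds only, so that its level in WT was not analysed here. A H3K27me3 peak was credited to 131 of the 196 lower genes (66.8%), 13 of the 23 higher genes (56.5%) and 32.7% of all genes. The lower genes are credited with much sequence, and of the genes with at least 2000 bp of H3K27ac in WT, 48.0% had such a peak. At least 2000 bp of H3K27me3 was credited to 31 lower genes (15.8%), 5 higher genes (21.7%) and 7.64% of the genes with at least 2000 bp in WT. Nr2f2 had 20000 bp of it in Shh-/- limb buds, and Pax1 and Pax9, which gained H3K27ac, had 15800 and 14100 bp, whereas Kcnj2 had 100 bp and Wnt5a 150 bp.

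Most of the unshared sequence lay far from starts. Of the unshared WT peaks of lower genes, 4.82% lay within 1 kb of a start and 48.5% lay more than 100 kb away, against 14.2% and 32.6% of all unshared WT peaks. For genes with at least 2000 bp in WT that were not lower, the shares were 4.43% and 41.7%, so that much of the contrast with all genes was also seen at other genes with many peaks. Of the unshared Shh-/- peaks of higher genes, 2.78% lay within 1 kb and 46.5% beyond 100 kb.

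The 5 largest losses within 1 kb of a start were at Mecom, Hist1h2af, Adgrl2, Hist1h3e and Gas1. Each involved how a broad peak was cut or centred. At Hist1h3e the Shh-/- coverage was also shorter, with 6 peaks of 4650 bp in all over a WT peak of 6200 bp. At Mecom the peaks near a start covered 12700 bp in WT and 250 bp in Shh-/-, yet over its WT peak of 11550 bp the Shh-/- list had 3 peaks of 12000 bp. At Adgrl2 the WT peak of 6350 bp was centred 981 bp from the start and the Shh-/- peak of 6400 bp 1406 bp from it. At Gas1 the peaks of 4750 and 4100 bp were centred 617 and 1392 bp from the start.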

How the data were processed

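H3K27ac ChIP-seq was performed on whole E10.5 forelimb buds. The authors entered both ChIP replicates of a genotype with its input into CisGenome 2.1.0 on mm10 and deposited 1 peak list per genotype, after alignment with Bowtie2 2.2.5 per the labels. For each peak the authors deposited its position and length in bp, an FDR (a q-value), a score (the largest ChIP-to-input statistic, which sets the rank) and the largest log2 ratio of ChIP to input. The authors' differential test of peaks was not used here. The lists do not give depth, and no precision is stated for lengths.

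Peaks of the 19 autosomes and both sex chromosomes were credited by midpoint to the nearest coding start of GENCODE vM21 with Python 3.11.15 and pandas 2.3.3. Covered bp were summed per gene and called at 2 times and 2000 bp. A shared peak overlapped the other list by at least 1 bp. With 1 pooled list per genotype no test, SD or p-value was possible. Named genes were, outside 12 well-known Hedgehog-responsive genes, the 15 of largest loss among genes called lower, the 10 of largest gain among genes called higher, the 8 and 5 list-only genes of most covered bp, the 5 of largest loss at starts and up to 4 per list by difference. The members, gene lists and rules were chosen with earlier results of these data known. The calling step was run on copies of the WT list from which all peaks of randomly drawn genes were removed. Those calls follow from the rule, so the run checked the computation and not the calls in these data. Alternatives changed thresholds, list size, FDR, merging and gene crediting, and crediting base by base was added after seeing the data. A list of blood genes and 1 marker are not reported here.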

Additional observations from a re-analysis of the deposited data

How the results depend on the processing

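No paired analysis was possible because each genotype had 1 list from pooled replicates, and for the same reason no replicate could be left out. The 196 lower and 23 higher genes became 95 and 14 at 3 times, 545 and 117 at 1000 bp, 61 and 5 at 4000 bp, 125 and 51 with the Shh-/- lengths scaled, 412 and 104 with peaks within 1 kb merged, and 711 and 230 when peaks were counted in place of bp. Lower genes numbered 126 with peaks within 100 kb only, and higher genes 13 when each base was credited to its nearest start. The 126 WT-list genes became 78 with the better-ranked 50% of both lists and 27 at 5 peaks or more, and the 32 Shh-/- list genes became 18 and 5. Equal numbers of best-ranked peaks brought the 126 and 32 closer together, at 90 and 47. The 6 remaining settings kept the counts of lower genes between 173 and 203, but not always the same genes. With the better-ranked 50% of both lists 175 genes were lower, of which 124 were among the 196. In each of the others among these 6, at least 173 of the 196 stayed lower. Across all 13 alternatives, 9 genes were lower in each: Sall1, Lrmda, Fbxo8, Atp5g3, Grem1, Ntm, Arid3b, Hs3st3b1 and Calcoco1. No gene was higher in each.

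The motif share of unshared peaks was 0.233% in WT and 0.0831% in Shh-/-, and 0 (of 384) among unshared Shh-/- peaks of lower genes, where a count of 0 allows 0.781%. The difference in covered bp, WT minus Shh-/-, turned for 4 named genes. Merging peaks gave -550 bp at Hist1h2af and 700 bp at Hist1h4h. Crediting each base gave 150 bp at Hoxd9, 750 bp at Hist1h4h and 350 bp at Hist1h3f, by the division of broad peaks among neighbours. The missing spread between replicates and the unknown depth limit all of these values.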
